A study of Mus musculus with 18 samples.

Results

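The location of RNA inside BV2 cells after 24 h with 10 µM oxyhemoglobin was described from the nuclear and the cytoplasmic fraction of the treated cultures. BV2 is an immortalised mouse microglial line, and oxyhemoglobin is the oxygen-carrying blood pigment. The genes described are the 16522 of 55487 in the deposited count table with a mean count of at least 10 in the nuclear or the cytoplasmic column. The groups used were nuclear RNA at 24 h and cytoplasmic RNA at 24 h, and, for comparison over time, both fractions of untreated cells (0 h) and at 12 h. Each of the 6 groups had 3 libraries, 18 in all, and the table holds only the mean of the 3 libraries of a group. The line stands for microglia in culture only, an untreated culture kept for 24 h was not part of the design, and no spread between libraries can be given. Per the labels' protocols, trypsinised cells were opened with a mild detergent in hypotonic buffer, the nuclei were spun down and washed in the same buffer, and the supernatant served as cytoplasm.

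As background, most mRNAs are spliced and capped in the nucleus and then exported through nuclear pores to the ribosomes of the cytoplasm. Some RNAs stay behind, among them transcripts that keep introns, small nucleolar RNAs (snoRNAs) that guide modification of ribosomal RNA, and long noncoding RNAs such as Malat1, Neat1 and Xist. RNA made inside mitochondria travels with the cytoplasm when cells are opened gently.

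The nuclear group at 24 h held 16031875 counts summed over its libraries, and the cytoplasmic group held 19537309. Of the nuclear counts 22.1% fell on ENSMUSG00000118642, an identifier without a name in the annotation used, and 0.667% on mitochondrial genes, against 6.76% of the cytoplasmic counts on mitochondrial genes. Of the 22 macrophage and microglia lineage markers, 21 had reads in each fraction, 16 reached the count limit, and C1qa was at 0 in both. Levels of the 22 summed to 3286 CPM (counts scaled to library depth) in the nucleus and 7783 CPM in the cytoplasm. Of 22 markers of other brain cells 10 were at 0 in both fractions, including the neuronal Rbfox3, Snap25 and Syt1 and the astrocytic Aqp4 and Aldh1l1. However, 12 had reads in the nucleus and 10 in the cytoplasm, and 5 reached the count limit, among them Tubb3, Mbp, S100b and Pecam1. That list summed to 17.0 CPM in the nucleus and 27.6 CPM in the cytoplasm. Of 17 markers of fibroblasts and other leukocytes 7 were at 0 in both, with sums of 3.24 CPM in the nucleus and 2.69 CPM in the cytoplasm. Of 10 erythroid markers 6 were at 0 in both, the hemoglobin genes among them, with sums of 8.45 CPM in the nucleus and 1.45 CPM in the cytoplasm.

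RNA was located unevenly between the fractions for most genes. Levels are CPM after TMM scaling, which sets the trimmed average log ratio between columns to 0, and location is the log2 ratio of nuclear to cytoplasmic CPM, so positive values are nuclear. To be called, a gene had to differ by 2-fold or more, with a 95% counting interval, exact on the summed reads of the 3 libraries, that left out 0. This interval covers counting error only and not differences between cultures. By this rule 7447 genes (45.1%) were higher in the nucleus and 5162 (31.2%) in the cytoplasm, 76.3% in either direction, and 3913 were not called. The median ratio was 0.57, with quartiles at −1.41 and 2.44. A total of 213 genes had no read in the cytoplasm, and none of the genes described lacked reads in the nucleus. Across the 16309 genes with reads in both fractions, which are not independent replicates, the log2 levels of the 2 fractions had a Pearson correlation of 0.73. Both levels are shares of the RNA of a fraction, so they give no copies per cell, and fewer cells of a kind and less RNA per cell cannot be told apart.

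**Figure D1:**
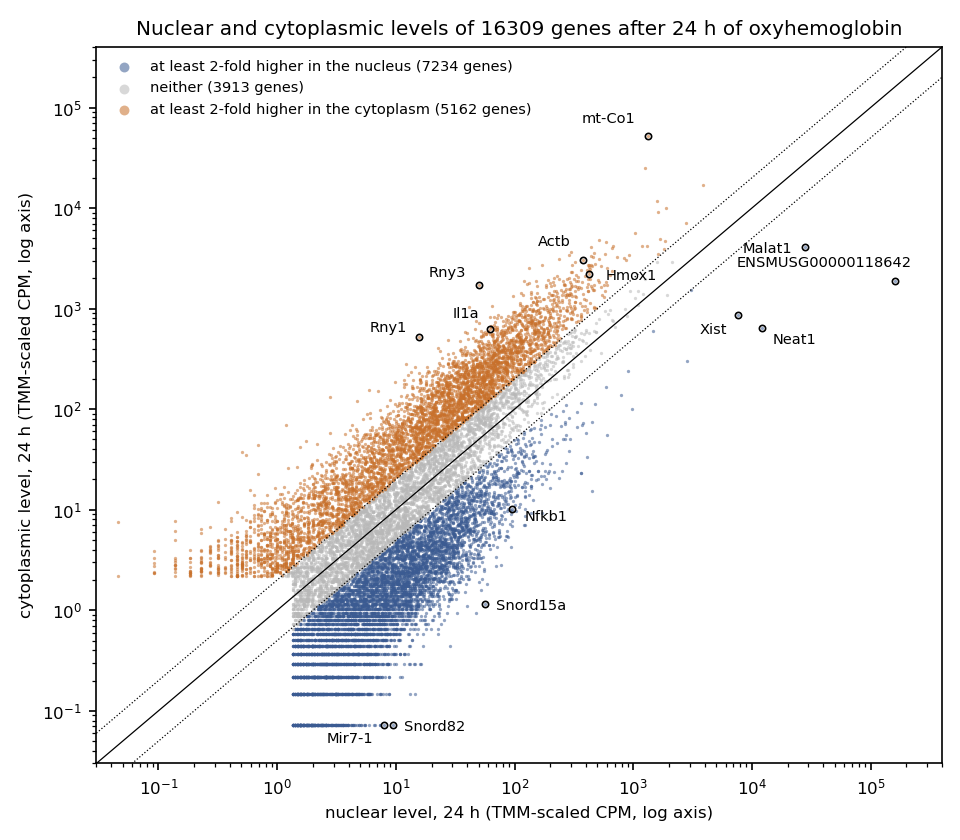
Nuclear level (x axis) against cytoplasmic level (y axis) of 16309 genes at 24 h, both as TMM-scaled CPM on log axes. Points below the lower dotted line are at least 2-fold nuclear, points above the upper one at least 2-fold cytoplasmic. Malat1, Neat1 and Xist lie far below the line of equal levels, and mt-Co1, Rny3 and Rny1 far above it.

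The limit on counts bears on this split. Of the genes described, 10411 reached a mean count of 10 in both columns, 5425 only in the nucleus and 686 only in the cytoplasm. With at least 10 in both columns, 2491 genes were nuclear and 4492 cytoplasmic, and the median ratio was −0.68. The 337 genes just inside the limit, at a count of 10 to under 11 in the higher column, had a median ratio of 1.48, and the 369 genes just outside it, at 9 to under 10, had a median of 1.76. Scaling bears on it too. Total-count scaling moved every ratio by 0.96 toward the nucleus and median-of-ratios scaling by −0.27. Of the genes called, 59.1% were nuclear with TMM scaling, 76.9% with total counts and 54.4% with median-of-ratios scaling. The distance of a group's median from the median of all genes does not depend on these column scalings and is given below as its value relative to all genes.

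Mitochondrial transcripts and the listed small RNAs made by RNA polymerase III were cytoplasmic groups. mt-Co1 (mitochondrial genome, 5328 to 6872), a subunit of cytochrome c oxidase, was at 1323 CPM in the nucleus and 52299 CPM in the cytoplasm, a log2 ratio of −5.31 (interval −5.32 to −5.29, uncertain as defined below). Its partner subunits mt-Co2 (−5.88, interval −6.50 to −5.32) and mt-Co3 (−5.58, interval −5.97 to −5.21) were below it, also uncertain. All 14 measured genes of the mitochondrial list were cytoplasmic, with a median of −3.67, or −4.23 relative to all genes. Of the 31-base words (31-mers) of mt-Co1 63.9% occur in transcripts of another gene, as do 100% of those of mt-Co2 and 99.9% of those of mt-Co3. Genes with at least 20% of such 31-mers, or with at least 20% of their exonic bases inside an exon of another gene, are called uncertain here, because their reads may belong to the other gene. They number 3362, or 20.3% of the genes described.

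All 8 measured members of the RNA polymerase III list were cytoplasmic, with a median of −4.54, or −5.10 relative to all genes, and 6 of them are uncertain. The list does not stand for every such locus. Of the annotated class of miscellaneous RNAs, which also holds Rny1, Rny3 and Rn7sk, 57 of 69 were nuclear and 10 cytoplasmic, with a median of 2.87. The Y RNAs Rny3 and Rny1, partners of the Ro60 protein, led the list. They are shown whole, in lower case, because they had the lowest ratios of the list, from the GENCODE M21 transcripts on GRCm38. Rny3 (chr6:47781624-47781725, plus strand) and Rny1 (chr6:47788069-47788180, minus strand) are neighbours.
Rny3: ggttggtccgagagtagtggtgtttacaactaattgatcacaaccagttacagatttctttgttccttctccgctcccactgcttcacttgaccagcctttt
Rny1: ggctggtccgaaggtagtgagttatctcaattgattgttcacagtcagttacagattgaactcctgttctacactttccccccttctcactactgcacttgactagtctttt
Rny3 was at 49.999 CPM in the nucleus and 1699 CPM in the cytoplasm (log2 ratio −5.09, interval −5.18 to −4.999). Rny1 was at 15.8 CPM in the nucleus and 526.8 CPM in the cytoplasm (−5.06, interval −5.22 to −4.90, uncertain). The vault RNA Vaultrc5, part of a large cytoplasmic particle, was at −4.72 (interval −4.99 to −4.46). Rn7s1, an RNA of the signal recognition particle, was at −4.40 (uncertain), and Bc1, a regulator of translation known from neurons, at −2.68 (uncertain). The list also holds RNAs known for nuclear work. Rn7sk, which restrains the elongation factor P-TEFb, was at 3884 CPM in the nucleus and 16902 CPM in the cytoplasm (−2.12, interval −2.13 to −2.11, uncertain). Rpph1, the RNA of ribonuclease P, was at 41.0 CPM in the nucleus and 1049 CPM in the cytoplasm (−4.68, interval −4.77 to −4.58, uncertain). Rmrp, the RNA of a related enzyme, was listed at 0 in both fractions.

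The highest ratios were ranked among called genes with a plain name and reads in both fractions. Their mean over both columns had to be at least 5 CPM per total counts. Of the 12 highest by this rule, 5 belonged to snoRNAs. Of the 202 snoRNA genes measured 189 were nuclear and none was cytoplasmic, with a median of 3.02, or 2.46 relative to all genes. These 5 are box C/D snoRNAs, which guide 2′-O-methylation, and are shown because they rank among these 12. That ranking leaves out the 213 genes without a cytoplasmic read, whose ratios are lower bounds from a floor of 3 reads. Capitals mark the first TGATGA (box C) and the last CTGA (box D), on the transcribed strand only. Their genes lie at chr1:86356261-86356330 (Snord82, minus strand), chr7:45127382-45127464 (Snord32a, minus), chr16:20684239-20684313 (Snord66, plus), chr7:99482785-99482932 (Snord15a, minus) and chr15:80078498-80078591 (Snord83b, minus) of GRCm38.
Snord82: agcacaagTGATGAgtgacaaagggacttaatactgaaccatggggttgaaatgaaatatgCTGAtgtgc
Snord32a: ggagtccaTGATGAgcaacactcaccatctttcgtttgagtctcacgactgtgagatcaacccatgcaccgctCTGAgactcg
Snord66: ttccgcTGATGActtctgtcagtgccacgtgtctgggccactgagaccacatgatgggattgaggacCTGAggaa
Snord15a: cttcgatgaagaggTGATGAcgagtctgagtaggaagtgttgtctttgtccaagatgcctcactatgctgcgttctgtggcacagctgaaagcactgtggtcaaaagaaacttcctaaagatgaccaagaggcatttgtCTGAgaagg
Snord83b: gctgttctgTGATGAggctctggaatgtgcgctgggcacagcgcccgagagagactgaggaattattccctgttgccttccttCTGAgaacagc
Snord82 was at 9.50 CPM in the nucleus and, from 1 read in all, 0.0727 CPM in the cytoplasm, a log2 ratio of 7.03 with an interval of 4.54 to 12.34. Snord15a rested on more cytoplasmic reads, with 56.6 CPM in the nucleus and 1.16 CPM in the cytoplasm (5.60, interval 4.90 to 6.42). Snord32a was at 28.4 CPM in the nucleus and 0.436 CPM in the cytoplasm (6.02, interval 4.89 to 7.47). Snord66 was at 5.63 (interval 4.06 to 7.91) and Snord83b at 5.29 (interval 4.30 to 6.51). A TGATGA followed by CTGA occurred in 24 of the 33 measured genes named Snord (72.7%), in none of the 14 named Snora and in 22.3% of all 202 snoRNA genes. The Snord genes had a median ratio of 3.42 with 31 of 33 nuclear, and the Snora genes, of the box H/ACA kind that guides pseudouridylation, a median of 2.80 with 11 of 14 nuclear.

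By number of genes the microRNA class was nuclear as well, with 114 of 125 nuclear, 7 cytoplasmic and a median of 3.03. By counts it was not, with 0.320% of the nuclear and 0.709% of the cytoplasmic counts. Gm23935, annotated as a microRNA gene, was among the 6 genes with most cytoplasmic counts. It was at 1881 CPM in the nucleus and 9949 CPM in the cytoplasm (−2.40, uncertain). The counts do not separate mature microRNAs from their primary transcripts. Of the 125 genes 53 matched a RefSeq hairpin, and these had a median of 3.24 with 48 nuclear and 2 cytoplasmic. Mir7-1, Mir186 and Mir222 had the 3 highest ratios among microRNA genes with a plain name and a cytoplasmic read. They are shown as RefSeq hairpins (GRCm38.p6), with the mature arms in capitals. The mature arms follow, with the seed, bases 2 to 8, in capitals. Their hairpins lie at chr13:58392779-58392886 (minus), chr3:157544279-157544349 (plus) and chrX:19146893-19146971 (minus).
Mir7-1: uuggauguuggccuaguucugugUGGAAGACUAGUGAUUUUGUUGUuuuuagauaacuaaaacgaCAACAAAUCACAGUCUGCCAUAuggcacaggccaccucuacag
mmu-miR-7a-5p: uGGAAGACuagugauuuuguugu
mmu-miR-7a-1-3p: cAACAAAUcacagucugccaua
Mir186: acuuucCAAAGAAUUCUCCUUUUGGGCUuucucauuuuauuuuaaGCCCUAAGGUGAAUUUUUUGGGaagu
mmu-miR-186-5p: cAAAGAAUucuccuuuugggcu
mmu-miR-186-3p: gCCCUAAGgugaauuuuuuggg
Mir222: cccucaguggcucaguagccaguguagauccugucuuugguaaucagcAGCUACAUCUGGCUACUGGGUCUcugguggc
mmu-miR-222-3p: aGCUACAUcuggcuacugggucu
No seed is shared among these arms. Mir7-1 was at 7.90 CPM in the nucleus and 0.0727 CPM in the cytoplasm (log2 ratio 6.76, interval 4.27 to 12.08), Mir186 at 5.65 (interval 3.13 to 10.97) and Mir222 at 5.48 (interval 2.95 to 10.80), each from 1 cytoplasmic read.

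The list of nuclear long noncoding RNAs held 7.01% of the nuclear counts and 0.435% of the cytoplasmic counts. Malat1 (chromosome 19, 5795690 to 5802672), a component of nuclear speckles, was at 27988 CPM in the nucleus and 4134 CPM in the cytoplasm (log2 ratio 2.76, interval 2.75 to 2.77). Its neighbour Neat1 (5824708 to 5845478), the scaffold of paraspeckles, was at 12109 CPM in the nucleus and 648.1 CPM in the cytoplasm (4.22, interval 4.19 to 4.25). Xist (chromosome X, 103460366 to 103483254), which coats the inactive X chromosome, was at 7592 CPM in the nucleus and 864.0 CPM in the cytoplasm (3.14, interval 3.11 to 3.16). Of its 18 measured members 16 were nuclear and none was cytoplasmic, with a median of 2.97, or 2.40 relative to all genes. Peg13 (5.34), Mir155hg (4.23), the host transcript of the inflammatory microRNA miR-155, Mir17hg (3.66) and the imprinted Kcnq1ot1 (3.23) were among them, while Tug1 (−0.12) and Trp53cor1 (−0.07, uncertain) were called in neither direction. ENSMUSG00000118642 stood apart in size, with 162100 CPM in the nucleus and 1870 CPM in the cytoplasm (6.44, interval 6.42 to 6.46). Of 14 snoRNA host genes 9 were nuclear, among them Gas5 (2.88) and Snhg15 (3.15). The list's median of 1.93 turned to −0.23 over members with no annotated overlap.

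Among protein coding genes the highest ratios belonged to genes with few cytoplasmic reads. Olfr113 (chromosome 17, 37573877 to 37577663), annotated as an olfactory receptor, was at 13.2 CPM in the nucleus and 0.145 CPM in the cytoplasm (log2 ratio 6.50, interval 4.63 to 9.55, uncertain). Nt5e, which makes adenosine from AMP at the cell surface, was at 7.76 CPM in the nucleus and 0.145 CPM in the cytoplasm (5.74, interval 3.86 to 8.80). Fam196b (5.90), Mcc (5.12) and Arhgef26 (5.22, uncertain) were also among the 12 highest. At the other end Gltp, a glycolipid transfer protein, was at 7.08 CPM in the nucleus and 150.3 CPM in the cytoplasm (−4.41, interval −4.65 to −4.17). Tma7 was at −4.66 (uncertain), Tma7-ps at −4.80 (uncertain) and Ftl1-ps1, a copy of the ferritin light chain gene, at −4.53 (uncertain).

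Annotated classes differed in location. Protein coding genes had 3612 nuclear and 4029 cytoplasmic members of 10690 (33.8% and 37.7%), with a median of −0.24 that total-count scaling (0.71) and the deposited TPM (0.21) turned positive, and of −0.81 relative to all genes. The TEC, sense-intronic, antisense, snRNA and lincRNA classes lay above the median of all genes. TEC loci, transcripts that await experimental checks, had 1088 of 1222 nuclear (89.0%) and a median of 3.00. Sense-intronic transcripts had 161 of 177 nuclear and a median of 2.94, antisense transcripts 726 of 978 and 2.37, small nuclear RNAs (snRNAs) 114 of 144 and 2.60, and lincRNAs 279 of 586 and 0.91. All 17 scaRNAs, which guide modification of snRNAs in Cajal bodies, were nuclear, with Scarna6 at 44.8 CPM in the nucleus and 2.98 CPM in the cytoplasm (3.91, interval 3.46 to 4.40). The mitochondrial transfer RNAs had 8 of 11 cytoplasmic and none nuclear, and both mitochondrial ribosomal RNAs were cytoplasmic (mt-Rnr2 −4.31, mt-Rnr1 −3.76).

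**Figure D2:**
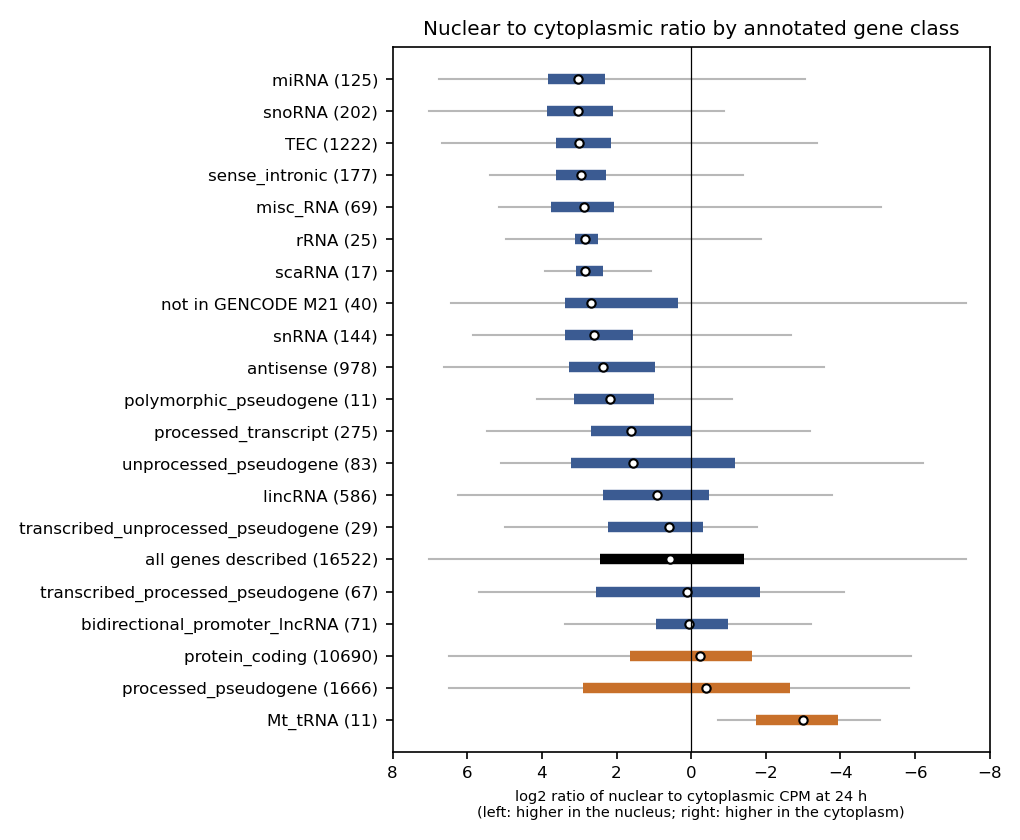
Log2 ratio of nuclear to cytoplasmic CPM at 24 h (x axis, nuclear to the left) for each annotated class with at least 10 genes; thick bars span the quartiles, thin lines the whole range, and circles the median. The black bar is all 16522 genes, with its median at 0.57, and the snoRNA, miRNA and TEC classes have medians from 3.00 to 3.03.

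Many of these transcripts sit inside the span of a protein coding gene, on either strand. That held for 78.4% of TEC loci, 61.1% of antisense transcripts, 98.9% of sense-intronic ones, 91.1% of snoRNAs and 85.6% of microRNA genes, but for 7.34% of lincRNAs. TEC loci inside a coding gene had a median of 3.14, and the 264 outside 1.92. Antisense transcripts had 2.75 inside and 1.30 outside, lincRNAs 2.17 inside and 0.86 outside, and snRNAs 2.83 inside and 0.43 outside. snoRNAs (3.00 inside, 3.07 outside) and microRNA genes (3.03 inside, 2.95 outside) were close to each other. Reads of unspliced host transcripts that cover such a gene were not separated from its own.

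Processed pseudogenes, the intronless copies of mRNAs, differed by place and by shared sequence. Of 1666, 739 were nuclear and 788 cytoplasmic, with quartiles at −2.65 and 2.88. The 832 inside a coding gene had a median of 2.64 and the 834 outside had −2.40. The 1131 with at least 20% of 31-mers shared with another gene had a median of −2.13, with 283 nuclear and 742 cytoplasmic, and the 535 with less had 2.99, with 456 nuclear and 46 cytoplasmic. Class medians also depended on the limit on counts. With at least 10 counts in both columns the median of all genes was itself −0.68 (0.57 otherwise). The class medians were −0.46 for snRNAs, −2.12 for the miscellaneous RNAs (2.87 otherwise) and −0.061 for lincRNAs. They were 0.40 for microRNA genes and 2.40 for TEC loci. Ribosomal RNA copies were at −1.88 (2.83 otherwise), the value of the lowest single copy and the only cytoplasmic one of 25.

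Gene structure went with location among protein coding genes. In 5 groups of equal size by number of exons, from fewest to most, the median ratio was −1.21, −0.62, −0.28, 0.16 and 0.60. Across the 10688 coding genes, which are not independent, Spearman's rho with the ratio was 0.24 for the number of exons, 0.22 for exonic length, 0.16 for gene span and −0.061 for the exonic share of the span. Across all 16476 genes with a structure the signs were opposite (−0.14, −0.096, −0.13 and 0.13). The share of exonic bases annotated in retained-intron transcripts only had a rho of 0.25 in coding genes. Genes without such bases had a median of −1.02, those with up to 25% −0.16, up to 50% 0.56, up to 75% 1.08 and above that 1.28 (62 genes). The GC content of the longest transcript had a rho of 0.011. The mean CPM of a coding gene, which comes from the same columns as its ratio and its passing of the count limit, had a rho of −0.51. Of 5 groups by mean CPM the lowest had a median of 1.33 and the highest −1.85, where 5.00% of genes were nuclear and 76.8% cytoplasmic. Of the genes with 10 counts in 1 column only, 5425 had them in the nucleus and 686 in the cytoplasm.

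**Figure D3:**
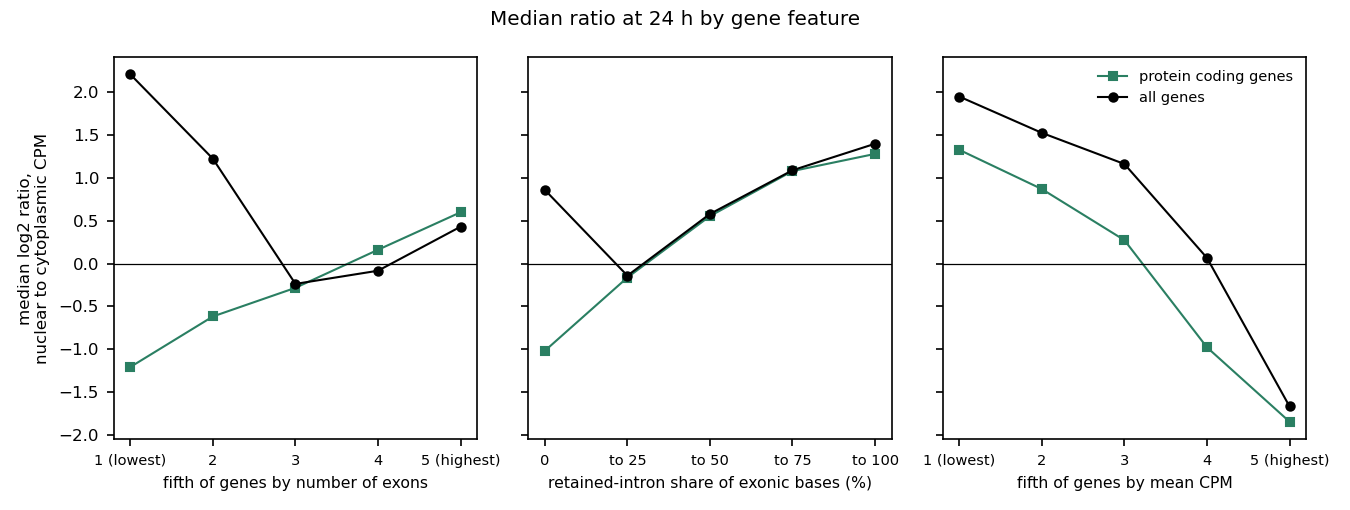
Median log2 ratio of nuclear to cytoplasmic CPM at 24 h (y axis) for 5 groups of genes of equal size by number of exons, for steps of the share of exonic bases found in retained-intron transcripts only, and for 5 groups by mean CPM (x axes). Green squares are protein coding genes and black circles all genes; medians of coding genes run from −1.21 to 0.60 with exon number and from 1.33 to −1.85 with level.

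Replication-dependent histones, intronless genes whose mRNAs end in a stem-loop in place of a poly(A) tail, were a cytoplasmic group. Of 55 measured, 50 were cytoplasmic and Hist1h2be (1.44) was the only nuclear one, with a median of −2.75, or −3.31 relative to all genes. Of these 55, 45 are uncertain, so their reads may not be separate, and without uncertain genes the median was −2.00. Hist1h4f was at 97.0 CPM in the nucleus and 920.6 CPM in the cytoplasm (−3.25, interval −3.31 to −3.18, uncertain) and Hist1h4c at 36.2 CPM in the nucleus and 363.0 CPM in the cytoplasm (−3.33, interval −3.44 to −3.22, uncertain). The stem-loop, searched as GGCTCTTTTNAGAGCC on the transcript strand, occurred in 27 of the 55 (49.1%) and in none of 10635 other coding genes. The 4 with the lowest ratios among those that hold it are shown with 5 bases on either side, because the motif sets these transcripts apart from other coding genes, with the stem-loop in capitals. They lie on chromosome 13 of GRCm38, and the genes are uncertain.
Hist1h2ao: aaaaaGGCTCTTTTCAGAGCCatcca
Hist1h2ae: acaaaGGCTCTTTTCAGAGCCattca
Hist1h3a: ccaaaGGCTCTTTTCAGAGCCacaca
Hist1h3b: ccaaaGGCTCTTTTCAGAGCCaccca
The 27 with the motif had a median of −2.52 with 24 cytoplasmic and 1 nuclear. Intronless coding genes other than histones and mitochondrial genes leaned the same way, with 141 of 248 cytoplasmic, 71 nuclear and a median of −1.53. Coding genes with more than 1 exon had a median of −0.19, which total-count scaling turns positive.

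Translation factors leaned to the cytoplasm, and ribosomal protein genes were divided. The background for these and the later lists of coding genes is all protein coding genes, with 37.7% cytoplasmic and 33.8% nuclear. No difference from that background was tested. Of 38 translation factors 23 were cytoplasmic (60.5%) and 5 nuclear (13.2%), with a median of −1.63. Eef1a1, which brings aminoacyl-tRNA to the ribosome, was at 595.5 CPM in the nucleus and 4591 CPM in the cytoplasm (−2.95, interval −2.97 to −2.92, uncertain), and Eef2, the translocase, at 1587 CPM in the nucleus and 11815 CPM in the cytoplasm (−2.90, uncertain). Eif4h, a cofactor of the helicase eIF4A, was at 60.2 CPM in the nucleus and 8.07 CPM in the cytoplasm (2.90, interval 2.62 to 3.19). Cytosolic ribosomal protein genes were spread from Rpl24 (4.46, uncertain) to Rps12 (−3.71, interval −3.84 to −3.58, uncertain). Of 78 measured, 26 were nuclear (33.3%) and 32 cytoplasmic (41.0%). However, 55 of the 78 are uncertain, so their reads may not be separate and the division may not be one of location. The list's median of −0.39 became positive with total counts (0.57), with the deposited TPM (0.26) and without uncertain genes (0.38). Rps12 was at 24.6 CPM in the nucleus and 321.6 CPM in the cytoplasm, and Rplp0, of the ribosomal stalk, at 67.0 CPM in the nucleus and 816.5 CPM in the cytoplasm (−3.61, uncertain).

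Genes of the cytoskeleton and cytosolic housekeeping had 16 of 27 cytoplasmic, 7 nuclear and a median of −1.93. Actb was at 380.9 CPM in the nucleus and 3033 CPM in the cytoplasm (−2.99, interval −3.03 to −2.96, uncertain), Arpc2, of the Arp2/3 complex, at −3.65 and Hprt at −3.20. Glycolysis was split between fractions, with 7 of 20 nuclear (35%) and 8 cytoplasmic (40%), close to the shares of coding genes. Its median of −0.19 turned positive with total counts (0.76) and TPM (0.37). Pfkp, a phosphofructokinase, was at 401.2 CPM in the nucleus and 58.5 CPM in the cytoplasm (2.78, interval 2.67 to 2.88), whereas Tpi1 was at 64.7 CPM in the nucleus and 361.7 CPM in the cytoplasm (−2.48, interval −2.57 to −2.40). Gapdh was at 85.0 CPM in the nucleus and 30.98 CPM in the cytoplasm (1.46, interval 1.30 to 1.61, uncertain). Nuclear-encoded oxidative phosphorylation genes had 24 of 65 nuclear (36.9%) and 23 cytoplasmic (35.4%), with a median of 0.33, or −0.24 relative to all genes. With at least 10 counts in both columns their median was −0.87, against −0.68 for all genes. Ndufs6, a subunit of complex I, was at 7.40 CPM in the nucleus and 98.7 CPM in the cytoplasm (−3.74, interval −3.98 to −3.50).

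mRNAs for splicing factors and paraspeckle proteins stood on the nuclear side. Of 66 splicing factors, hnRNPs and their kinases 37 were nuclear and 10 cytoplasmic, with a median of 1.60, or 1.03 relative to all genes. Ddx17, an RNA helicase, was at 271.5 CPM in the nucleus and 29.1 CPM in the cytoplasm (3.22, interval 3.08 to 3.37). Clk1, a kinase that phosphorylates SR proteins, was at 88.4 CPM in the nucleus and 10.1 CPM in the cytoplasm (3.13, interval 2.88 to 3.39), and Snrnp70, of the U1 particle, at 3.09. Srsf1 (−1.92) and Srsf2 (−1.89, uncertain) were the lowest members. Paraspeckle proteins had 8 of 14 nuclear and 2 cytoplasmic, and 6 of the 14 are uncertain. Dazap1 was at 16.1 CPM in the nucleus and 0.800 CPM in the cytoplasm (4.33, interval 3.48 to 5.35), and Nono at −2.37 (uncertain). Chromatin regulators with long introns had 19 of 44 nuclear and 8 cytoplasmic, with a median of 0.60, only 0.034 above that of all genes. Nuclear pore and export genes were divided, with 18 of 53 nuclear, led by Nup93 (3.77) and Nup62 (3.57), and 21 cytoplasmic, led by Seh1l (−2.76) and Ddx19a (−2.73, uncertain). Their median of −0.66 turned positive with total counts (0.29) and TPM (0.00461).

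**Figure D4:**
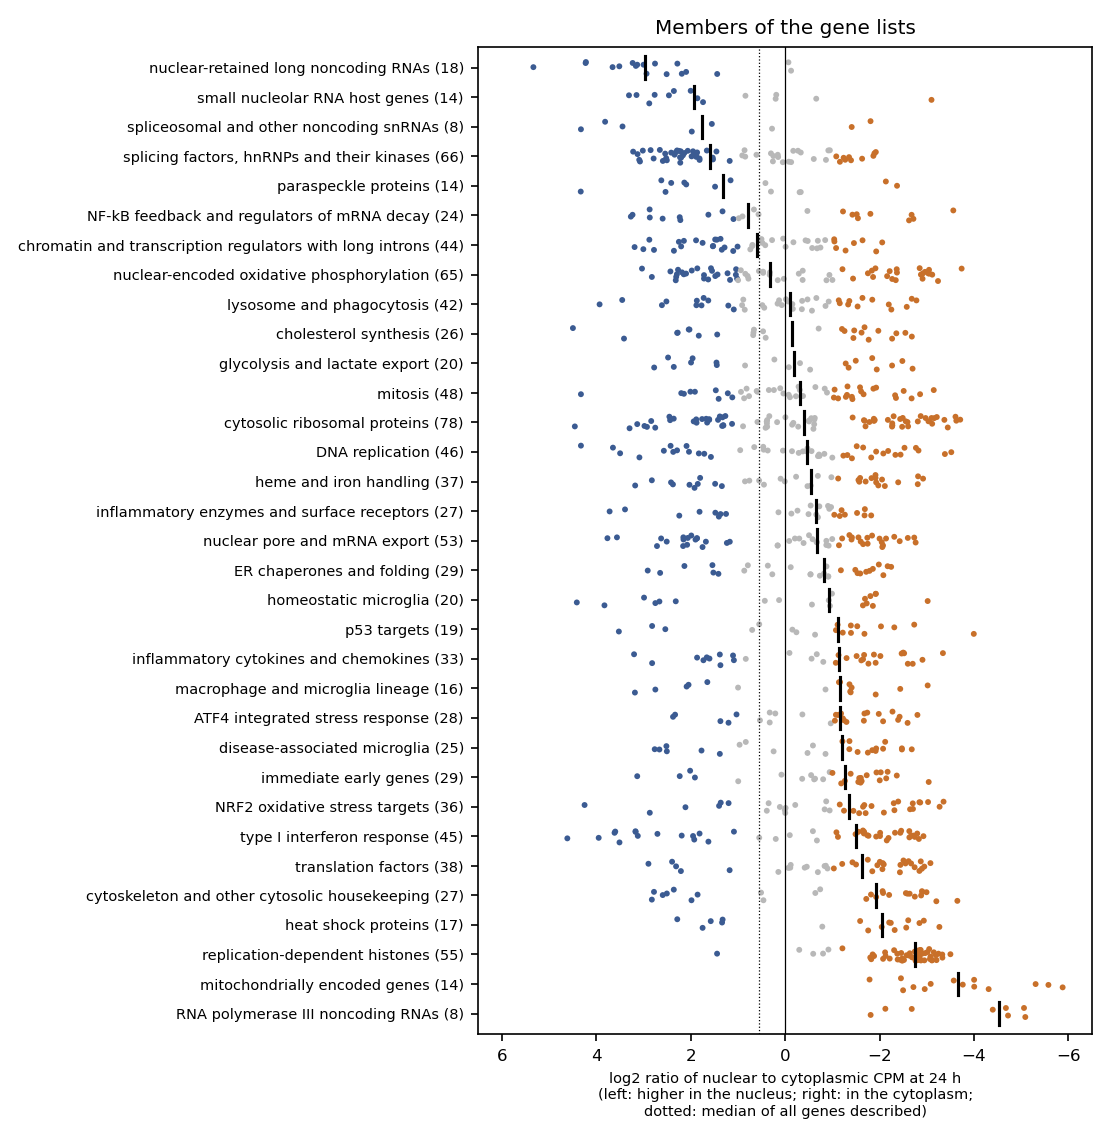
Log2 ratio of nuclear to cytoplasmic CPM at 24 h (x axis, nuclear to the left) of each measured member of the gene lists with at least 8 measured members, ordered by median (black bars). Blue points are genes called nuclear, orange ones cytoplasmic and grey ones neither; medians run from 2.97 for nuclear long noncoding RNAs to −4.54 for RNA polymerase III transcripts.

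Inflammatory signals, which microglia release on injury, ran from strongly cytoplasmic to nuclear. Of 33 measured cytokines and chemokines 18 were cytoplasmic and 10 nuclear, with a median of −1.13, or −1.70 relative to all genes. Il1a, interleukin-1 alpha, was at 62.2 CPM in the nucleus and 630.3 CPM in the cytoplasm (−3.34, interval −3.42 to −3.26), and Il1b at 16.7 CPM in the nucleus and 92.4 CPM in the cytoplasm (−2.47, interval −2.64 to −2.30). Ccl3, a chemokine for macrophages and the sixth gene by cytoplasmic counts, was at 1607 CPM in the nucleus and 9095 CPM in the cytoplasm (−2.50, interval −2.52 to −2.48). Csf3, which drives granulocyte production, was at 293.5 CPM in the nucleus and 897.3 CPM in the cytoplasm (−1.61, interval −1.66 to −1.57), and at −0.66 with total counts, short of the 2-fold limit. Other signals were nuclear: Il6 was at 15.7 CPM in the nucleus and 5.16 CPM in the cytoplasm (1.61, interval 1.23 to 1.99), and Ccl2, which draws monocytes, at 50.9 CPM in the nucleus and 16.1 CPM in the cytoplasm (1.66, interval 1.45 to 1.88). Tnf was at 20.0 CPM in the nucleus and 31.9 CPM in the cytoplasm (−0.67, interval −0.86 to −0.47), short of the 2-fold limit.

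Receptors and enzymes had 8 of 27 nuclear and 8 cytoplasmic (29.6% each), both below the shares of coding genes. Their median of −0.66 turned positive with total counts (0.30) and TPM (0.00987). The endotoxin receptor gene Tlr4 was at 112.8 CPM in the nucleus and 398.6 CPM in the cytoplasm (−1.82, interval −1.89 to −1.75). Ptgs2, the inducible cyclooxygenase, was at 332.7 CPM in the nucleus and 741.2 CPM in the cytoplasm (−1.16, interval −1.20 to −1.11), and Nos2, which makes nitric oxide, at −0.66 (interval −0.78 to −0.54). With total counts Tlr4 was at −0.86 and Ptgs2 at −0.20, both short of the 2-fold limit. Mmp12, a macrophage elastase, was nuclear at 4.79 CPM against 0.364 CPM in the cytoplasm (3.72, interval 2.45 to 5.37). The NF-kB feedback list was divided, with 10 of 24 nuclear (41.7%) and 9 cytoplasmic (37.5%), and a median of 0.78. With at least 10 counts in both columns its median was −0.47, against −0.68 for all genes. Nfkb1 (chromosome 3, 135584655 to 135691547), which encodes the p50 subunit, was at 95.9 CPM in the nucleus and 10.2 CPM in the cytoplasm (3.24, interval 2.99 to 3.49). It has 65.1% of its exonic bases in retained-intron transcripts only, and a link to its location was not tested. Nfkbia, the inhibitor that retains NF-kB in the cytoplasm, was at 100.1 CPM in the nucleus and 657.9 CPM in the cytoplasm (−2.72, interval −2.78 to −2.65). Tnfaip3, which edits ubiquitin chains in this pathway, was at 0.91 (interval 0.60 to 1.22) and passed the 2-fold limit with total counts.

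Interferon response genes had 25 of 45 cytoplasmic (55.6%) and 15 nuclear (33.3%), with a median of −1.49, or −2.06 relative to all genes. Of all protein coding genes 37.7% were cytoplasmic and 33.8% nuclear. Isg15 (−2.93), a ubiquitin-like protein, and Gbp2 (−2.80), a guanylate-binding protein, were at the cytoplasmic end. At the nuclear end were Adar, an RNA editing enzyme, at 39.4 CPM in the nucleus and 2.55 CPM in the cytoplasm (3.95, interval 3.47 to 4.48), Rsad2 (3.62, interval 2.87 to 4.47) and Oas1g (4.62, uncertain). Immediate early genes had 17 of 29 cytoplasmic (58.6%) and 4 nuclear (13.8%), with a median of −1.26. Klf4 (−2.36, interval −2.77 to −1.97) and Jund (−3.04, uncertain) were cytoplasmic, and Per1 (3.14), a clock gene, and Zfp36 (2.24), which promotes decay of cytokine mRNAs, were nuclear.

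Genes that answer heme and oxidants were mainly cytoplasmic. Of 36 NRF2 targets 20 were cytoplasmic and 6 nuclear, with a median of −1.34, or −1.91 relative to all genes. Hmox1, the inducible heme oxygenase (chromosome 8, 75093621 to 75100589), was at 421.3 CPM in the nucleus and 2214 CPM in the cytoplasm (−2.39, interval −2.43 to −2.36). Srxn1, which repairs peroxiredoxins, was at 123.3 CPM in the nucleus and 771.2 CPM in the cytoplasm (−2.65, interval −2.71 to −2.58), and Txn1, thioredoxin, at 57.4 CPM in the nucleus and 553.9 CPM in the cytoplasm (−3.27, interval −3.36 to −3.18). Gsr, glutathione reductase, was at −3.03 and Gpx4, which reduces lipid peroxides, at −3.35 (uncertain). Slc7a11, the cystine importer, was at 1583 CPM in the nucleus and 2888 CPM in the cytoplasm (−0.87, interval −0.89 to −0.85), short of the 2-fold limit. The nuclear members included the autophagy receptor gene Sqstm1 (2.87) and the exporter gene Abcc4 (4.25, interval 2.66 to 6.56).

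Heme and iron handling had 16 of 37 cytoplasmic (43.2%) and 10 nuclear (27.0%). The list's median of −0.54 turned positive with total counts (0.42) and TPM (0.12). The iron chaperone gene Pcbp1 was at 306.0 CPM in the nucleus and 2318 CPM in the cytoplasm (−2.92, interval −2.96 to −2.88), and the heme transporter gene Slc48a1 at 29.5 CPM in the nucleus and 207.8 CPM in the cytoplasm (−2.81, interval −2.94 to −2.69). The ferritin genes had opposite signs: heavy chain Fth1 was at 503.8 CPM in the nucleus and 1915 CPM in the cytoplasm (−1.93, interval −1.96 to −1.89; −0.97 with total counts, short of the limit), and light chain Ftl1 at 31.5 CPM in the nucleus and 4.44 CPM in the cytoplasm (2.83, interval 2.45 to 3.23, uncertain). The uncertain copy Ftl1-ps1 held 12.1 CPM in the nucleus and 280.3 CPM in the cytoplasm, and 64.1% of the Ftl1 31-mers occur in another gene, so the place of ferritin light chain mRNA was not resolved. Flvcr2, described as a heme or choline transporter, was at 3.18 (interval 2.08 to 4.53).

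Other stress programmes are set beside all protein coding genes, of which 37.7% were cytoplasmic and 33.8% nuclear. The cytoplasmic share was 64.7% for heat shock proteins, 60.7% for ATF4 targets and 57.9% for p53 targets. For cholesterol synthesis it was 46.2% and for ER chaperones 37.9%, closer to that of coding genes. Heat shock proteins had 11 of 17 cytoplasmic and 5 nuclear, with a median of −2.04, and Hsp90ab1 was at 465.0 CPM in the nucleus and 3560 CPM in the cytoplasm (−2.94, interval −2.97 to −2.91). ATF4 targets had 17 of 28 cytoplasmic, 5 nuclear and a median of −1.15, with Mthfd2, of mitochondrial folate metabolism, at −2.59. p53 targets had 11 of 19 cytoplasmic and 3 nuclear, led by Ccng1, cyclin G1, at 23.7 CPM in the nucleus and 378.7 CPM in the cytoplasm (−4.00, interval −4.13 to −3.87). ER chaperones had 11 of 29 cytoplasmic and 6 nuclear, with a median of −0.82 that total-count scaling turned to 0.14. Ero1l, an oxidase of the ER, was at −2.24 and Edem1, of ER-associated degradation, at 2.91. Cholesterol synthesis had 12 of 26 cytoplasmic and 8 nuclear, with a median of −0.15 that total counts (0.81) and TPM (0.11) turned positive. Idi1, an isomerase of the pathway, was at −2.68 (uncertain).

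Genes of microglial identity were divided. The macrophage and microglia lineage list had 9 of 16 cytoplasmic (56.25%) and 5 nuclear (31.25%), against 37.7% and 33.8% of all protein coding genes. Spi1, the transcription factor PU.1, was at 46.4 CPM in the nucleus and 376.2 CPM in the cytoplasm (−3.02, interval −3.12 to −2.92), and Ptprc, the leukocyte antigen CD45, at 216.2 CPM in the nucleus and 23.8 CPM in the cytoplasm (3.18, interval 3.02 to 3.35). Trem2, a lipid-sensing receptor, was nuclear at 73.8 CPM, against 11.6 CPM in the cytoplasm (2.67, interval 2.43 to 2.91), as was Csf1r, the receptor for the survival factor CSF1, at 5.39 CPM in the nucleus and 0.800 CPM in the cytoplasm (2.75, interval 1.86 to 3.79). Homeostatic genes had 8 of 20 cytoplasmic (40%) and 6 nuclear (30%), close to the shares of coding genes. Disease-associated ones had 13 of 25 cytoplasmic (52%) and 6 nuclear (24%). Apoe was at 0.25 (interval −0.29 to 0.80) and passed the 2-fold limit with total counts. Lysosome and phagocytosis genes had 12 of 42 cytoplasmic (28.6%) and 11 nuclear (26.2%), both below the shares of coding genes. Their median of −0.11 was turned positive by total counts (0.85) and TPM (0.48). Psap, the precursor of the saposins, was at 10.0 CPM in the nucleus and 0.654 CPM in the cytoplasm (3.93, interval 2.98 to 5.08), and Atp6v0d1, of the proton pump, at −2.78. For DNA replication 13 of 46 genes were nuclear (28.3%) and 16 cytoplasmic (34.8%), and for mitosis 9 of 48 (18.75%) and 19 (39.6%). The medians of −0.46 and −0.32 were turned positive by total counts and TPM. Gins4, of the replicative helicase, was at −3.52, and Ccnb2, cyclin B2, at −2.86, while the securin gene Pttg1 was at 4.33 (interval 2.74 to 6.63).

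The order of genes by location at 24 h was much like that at 0 h. Of 15869 genes measured at both times, 6727 were nuclear and 4685 cytoplasmic at both. These are 93.5% of the nuclear genes at 24 h and 93.1% of those at 0 h, and 95.9% of the cytoplasmic genes at 24 h and 83.5% of those at 0 h. At 0 h 47.5% of genes were nuclear and 33.8% cytoplasmic (81.3% called), and at 12 h 46.7% were nuclear and 31.1% cytoplasmic (77.8% called). Over 15439 genes with reads in all 4 columns the ratios at 24 h and 0 h had a Pearson correlation of 0.94, and over 15388 genes those at 24 h and 12 h 0.95. The median change of the ratio since 0 h was 0.22. A change of at least 2-fold with an interval, from a normal approximation, that left out 0 was found toward the nucleus for 1390 genes (9.0%) and toward the cytoplasm for 1117 (7.23%). These counts turn on scaling. Total-count scaling lowers every change by the same amount, which gave a median change of −0.24, with 275 genes (1.78%) toward the nucleus and 2542 (16.5%) toward the cytoplasm, and median-of-ratios scaling gave a median of 0.20 with 1310 and 1158.

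With TMM scaling 17 genes were called in opposite fractions at the 2 times, and with total counts 1 was nuclear at 24 h and cytoplasmic at 0 h and 9 the reverse. The 3 that were nuclear at 24 h and cytoplasmic at 0 h were Snord118, Tmem8 and Bhlha9. Snord118 (chromosome 11, 69073427 to 69073561), the U8 RNA needed to process ribosomal RNA precursors, was at 1.55 at 24 h (interval 1.42 to 1.69, uncertain), against −1.002 at 0 h, with 1.11 at 12 h. With total counts it was at 2.51 at 24 h and 0.41 at 0 h. Tmem8 was at 2.01 at 24 h against −1.99 at 0 h, and Bhlha9 at 1.87 against −1.17. Among the 14 that were cytoplasmic at 24 h and nuclear at 0 h were Fth-ps3 (−2.27 at 24 h against 2.86 at 0 h), Nxt2, a cofactor of mRNA export (−2.06 against 2.37), Nanp (−2.30 against 1.62, uncertain) and Tbc1d7 (−1.56 against 1.97; −0.61 at 24 h with total counts, no longer a cytoplasmic call), all with mean counts of at most 36.0 at 24 h.

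The lists below are set beside the 9.0% of all genes changed toward the nucleus and the 7.23% changed toward the cytoplasm, and no difference from all genes was tested. Replication-dependent histones had a median of −2.75 at 24 h and −3.67 at 0 h, with 12 of 55 (21.8%) changed toward the nucleus and none toward the cytoplasm, against none and 2 with total counts. Translation factors had −1.63 at 24 h and −2.28 at 0 h, with 8 of 38 (21.1%) toward the nucleus and none toward the cytoplasm, against 1 and 1 with total counts. Eef2 was at −2.90 at 24 h and −4.31 at 0 h, a change of 1.42 (interval 1.39 to 1.44) that was 0.96 with total counts, short of 2-fold. Eef1a1 changed by 1.52 (interval 1.49 to 1.56), or 1.07 with total counts, and both genes are uncertain. Inflammatory enzymes and receptors had 7 of 26 (26.9%) toward the nucleus and none toward the cytoplasm, against 2 and 2 with total counts. Cytokines and chemokines had 2 of 24 (8.33%) toward the nucleus and 5 (20.8%) toward the cytoplasm, against none and 8 with total counts. Tnf was at −0.67 at 24 h and 1.94 at 0 h, a change of −2.61 (interval −3.59 to −1.63), and with total counts at 0.29 at 24 h and 3.36 at 0 h. Csf3 was at −1.61 at 24 h and −0.10 at 0 h, a change of −1.52 (interval −1.99 to −1.04), or −1.97 with total counts. Hmox1 was at −2.39 at 24 h and −3.04 at 0 h, a difference of 0.65 (interval 0.57 to 0.73), under 2-fold, and of 0.19 with total counts. Slc48a1 changed by 1.32 (interval 1.07 to 1.57), which total counts brought to 0.86, short of 2-fold. Nqo1, a quinone reductase, was at −2.86 at 24 h and −0.36 at 0 h (change −2.50, interval −3.79 to −1.22). Of 155 snoRNAs with reads in all 4 columns 17 (10.97%) changed toward the nucleus and 14 (9.03%) toward the cytoplasm, and of 117 snRNAs 10 (8.55%) and 13 (11.1%), close to the shares of all genes. Among named small RNAs, Snord13 was at 3.82 at 24 h and −0.57 at 0 h, or 4.77 at 24 h and 0.85 at 0 h with total counts. Rnu12, of the minor spliceosome, was at 3.45 at 24 h and 1.64 at 0 h (uncertain), and Rpph1 at −4.68 at 24 h and −3.0002 at 0 h (uncertain). The difference for Malat1 was −0.26 (interval −0.28 to −0.24), or −0.72 with total counts, and for Neat1 0.07 (interval 0.02 to 0.12), or −0.39 with total counts, all under 2-fold. Time in culture and treatment cannot be told apart in these changes.

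**Figure D5:**
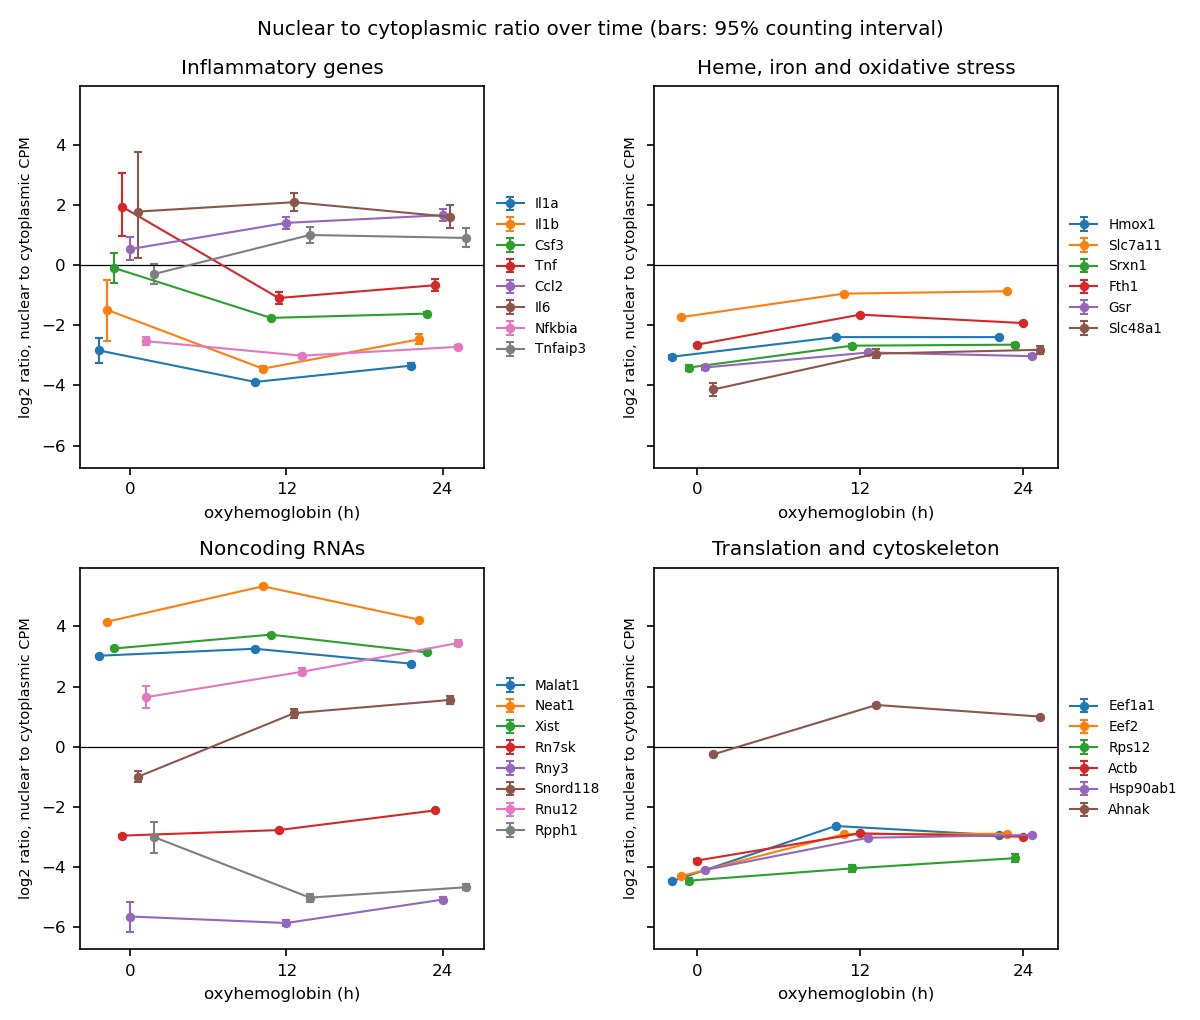
Log2 ratio of nuclear to cytoplasmic CPM (y axis) at 0, 12 and 24 h of oxyhemoglobin (x axis) for named genes of 4 kinds, with bars for the 95% counting interval. With TMM scaling Tnf was above 0 at 0 h (1.94) and below it at 24 h (−0.67), Snord118 the reverse, and Eef2 was at −4.31 at 0 h and −2.90 at 24 h. With total counts Tnf at 24 h (0.29) and Snord118 at 0 h (0.41) were above 0.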

How the data were processed

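Values are the mean of 3 libraries per group (6 groups, 18 libraries). Per the submitters' processing notes, reads were aligned with HISAT2 2.2.0 and counted with featureCounts, and DESeq2 is named; the sources used here give neither a strand setting nor a release of the annotation. The authors deposited mean estimated counts per gene, raw and not whole: all values times 3 were whole within 0.001, and were treated as estimated counts. The authors also deposited TPM, which follow from these means; their length per gene equalled the summed transcript lengths of GENCODE M21 within 0.1% for 97.9% of 11497 genes. No per-library values were used, so the planned tests on replicates were replaced by ratios with counting intervals, and no p-value or SD is given. The number of per-sample columns left unused was 0.

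Counts were scaled over all 6 columns by TMM (30% of log ratios and 5% of levels trimmed at each end), using scipy 1.17.1 and numpy 2.4.6 (Python 3.11.15), pandas 2.3.3 for tables, and matplotlib 3.10.9 for plots. The 95% interval is the exact Clopper-Pearson interval on summed reads. Where a side had 0 reads, 3 reads per group stood in as the floor, 0.137 CPM in the nucleus and 0.218 CPM in the cytoplasm, as a lower bound. Intervals and floors cover counting error only. The calls were tested on simulated data. Symbols, classes and positions came from GENCODE M21 on GRCm38 (55227 of 55487 identifiers), and 31-mers were compared on both strands over its transcripts.

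The genes, 36 gene lists and settings were chosen with earlier results of these data known. Named were the 12 highest and 12 lowest called genes with at least 5 CPM per total counts, reads in both columns and a plain symbol, the 6 genes with most counts in each column, up to 4 of each list and class with the largest absolute ratios and at least 1 CPM, a fixed list of genes, and up to 8 genes each way called in opposite fractions at 24 and 0 h. Other list members named were chosen after their values were seen. Alternatives were other scalings, limits, folds and gene sets. Some results of named genes are not reported here.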

Additional observations from a re-analysis of the deposited data

How the results depend on the processing

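The number of genes called higher in the cytoplasm, 5162, was 2780 with total counts, 3080 with the deposited TPM and a pseudocount of 1 (a call by fold alone), 2669 at 4-fold and 2112 with total counts taken without mitochondrial genes and the gene with most nuclear counts. The number called nuclear, 7447, was 2491 with at least 10 counts in both columns and 4900 with at least 30 in either. Of 20 classes with at least 10 genes 17 had a median above 0, against 7 with at least 10 counts in both columns. Of 36 lists 11 had a median above 0, against 22 with total counts, 20 with TPM and 6 with at least 10 counts in both columns. The limit of 10 in both columns also gave medians of the opposite sign for other brain cell markers (−1.94, as did 30 in either column), snRNAs (−0.46) and miscellaneous RNAs (−2.12). It did so for genes not in GENCODE (−0.36), lincRNAs (−0.061), bidirectional promoter lncRNAs (−0.36), NF-kB feedback (−0.47) and nuclear-encoded oxidative phosphorylation (−0.87). Among pseudogenes it did so for unprocessed (−0.88, and −0.11 with 30 in either column), polymorphic (−0.36), transcribed processed (−0.97) and transcribed unprocessed ones (−0.027). Ribosomal RNA copies also turned, to −1.88, the value of the lowest single copy. That limit removes genes with few cytoplasmic reads by construction, and it moved the median of all genes from 0.57 to −0.68. The signs above are of the ratio itself and not relative to all genes. snoRNA host genes were at −0.23 over members with no annotated overlap. Over protein coding genes alone Spearman's rho was 0.160 for span, 0.223 for exonic length, 0.235 for exon number and −0.0613 for the exonic share, opposite in sign to all genes. Changes since 0 h of at least 2-fold, 1390 toward the nucleus and 1117 toward the cytoplasm, were 275 and 2542 with total counts and 1310 and 1158 with median-of-ratios scaling, both chosen after seeing the data. Leaving out uncertain genes, chosen after seeing the data, gave 6211 nuclear and 3702 cytoplasmic genes. Of 276 named genes none changed direction among those called. Total-count and median-of-ratios scaling move every ratio by the same amount, under 2-fold, and the count limits leave each ratio as it is. A called gene could therefore not change direction under these settings. Below the 2-fold limit fell 34 genes with TPM, 11 with total counts and 1 with median-of-ratios scaling. No paired analysis was possible because the columns hold group means and carry no replicate number, and leaving out single replicates was not run for the same reason. The causes of these differences, other than the limit on counts, were not tested.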
